A study of Mus musculus with 2 samples.

Results

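The cells described here are fibroblasts of the mouse brain that carry transcripts of Slc7a11, Slc6a13, Col15a1, Lama1 and Slc22a6, and they are called Slc7a11 fibroblasts below. They were chosen by measured counts in both libraries. A barcode needed at least 1000 UMIs (unique molecular identifiers, each counting 1 captured mRNA molecule), at least 500 genes and at most 10% of UMIs from mitochondrial genes. It also needed no UMI of Ptprc, the pan-leukocyte antigen, and at least 2 UMIs of Col1a2 and Dcn together, a collagen and a proteoglycan of fibroblasts. The 5 markers together had to reach 5 UMIs and at least 2 times the sum of each of 3 other sets. Those sets were Mfap4, Gdf10, Cpz, Sfrp4 and Fmod, then Krtdap, Myoc, Smoc2, Chad and Prg4, and then Ccn3, Bche, Tnfrsf11b, Gjb6 and Rspo3. The rule found 208 cells in the heterozygous and 368 in the homozygous library, 576 of 36026 barcodes in all. Exchanging the sets in the same rule gave the 3 groups used for comparison, with 243 cells of the Mfap4 group, 169 of the Krtdap group and 1866 of the Ccn3 group. Since counts chose the cells, the levels of these 20 genes, and the differences from the other groups, are descriptions without a test.

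The study sorted cells from the whole brain of adult mice and sequenced them with the 10x Genomics 3′ v3.1 kit, which counts the 3′ ends of polyadenylated transcripts. 1 library came from IL34LacZ/+ mice, which carry 1 copy of a lacZ allele of Il34, and 1 from IL34LacZ/LacZ mice, which carry that allele only. Both genotypes thus hold the lacZ allele, and the heterozygous library is the control. The sort gates were CD13+ and/or CD140a+O4- for mural cells and fibroblasts, CD31+ for endothelial cells, ACSA-2+ for astrocytes, CD11bhiF4/80+ for border-associated macrophages and CD11b+F4/80hi for microglia, so that Anpep (CD13) and Pdgfra (CD140a) were themselves used to collect these fibroblasts. The labels do not state how many mice were used, their sex or strain, whether they were pooled, or in which proportions the sorted cells were loaded. Each genotype has 1 library, so no test between genotypes could be made, and genotype, animal, sort and library preparation cannot be told apart.

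Fibroblasts of the brain lie in the meninges, in the stroma of the choroid plexus and in the sheaths of larger vessels, where they lay down collagens and basement membrane and keep a barrier between blood, cerebrospinal fluid and tissue. Slc7a11 is the light chain of the cystine-glutamate exchanger xCT, which brings in cystine for glutathione synthesis. Slc6a13 is a carrier of GABA and taurine, and Slc22a6 is the organic anion carrier OAT1. Lama1 encodes the laminin alpha-1 chain, and Col15a1 encodes a collagen next to basement membranes. Il34 and Csf1 encode the 2 ligands of the CSF1 receptor, on which microglia and border macrophages depend.

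The gene for which the cells are named, Slc7a11, lies on the minus strand at chr3:49892526-50443614 (GRCm38, GENCODE vM21). The 250 bases before its start are shown because they hold a known type of stress-response element at a start site whose gene sets these cells apart. The sequence is RefSeq's for build GRCm38.p6, chr3:50443614-50443863, minus strand, written 5′ to 3′, with the matches to the amino acid response element TGATGCAA in capitals (both strands were searched).
Slc7a11: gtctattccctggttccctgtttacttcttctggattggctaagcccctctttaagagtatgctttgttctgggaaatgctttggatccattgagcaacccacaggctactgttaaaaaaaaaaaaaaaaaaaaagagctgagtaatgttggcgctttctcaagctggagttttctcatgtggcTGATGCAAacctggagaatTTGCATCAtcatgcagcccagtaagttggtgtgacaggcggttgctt
The 2 matches face each other and begin 66 and 47 bases before the start. The same letters occur in the 250-base promoter of 248 of 27025 genes (0.918%), and in 0 of the 102 promoters matched among the 153 genes that were at least 4-fold higher in these cells than in the other groups. The core of the antioxidant response element, TGACNNNGC, occurs in 11.5% of all promoters and in 14 of those 102 (13.7%), and Slc6a13 was the single holder among the 4 markers matched. The forkhead motif GTAAACA occurs in 3.54% of all promoters and in 1 of the 102. A match is a run of letters and not a measured binding site.

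Few cells lay exactly at the limit of the marker sum, though 45 heterozygous and 46 homozygous members had sums of 5 to 9 UMIs. The sum of the 5 markers ran from 5 over a median of 17.5 to 100 UMIs per cell in the heterozygous library and from 5 over 23 to 94 in the homozygous one. 6 and 4 members lay exactly at 5 UMIs, and 6 and 14 cells that met the other conditions lay just outside at 4. Levels below are CPM, the usual scaling to the total, of the UMIs summed over the cells of a class in a library, heterozygous first. Vtn, which the rule did not use, was at 856 and 2753 CPM in the members at 5 UMIs and at 326 and 2566 CPM in the cells at 4. The next condition, the factor of 2 over the other sets, had 12 and 25 members between 2 and 3, with 3 and 21 cells just outside between 1 and 2. Vtn was at 2254 and 1722 CPM in those members and at 1032 and 3038 CPM in the cells just outside. In the homozygous library it was thus higher outside this limit than inside. All 5 markers were detected in 24% and 27.7% of members, and 1 marker alone carried 3.85% and 1.9%.

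Slc7a11 fibroblasts made up 17.4% (exact Clopper-Pearson 95% interval 15.3 to 19.7) of the cells of the 4 groups in the heterozygous library and 22.2% (20.2 to 24.3) in the homozygous one. Among cells with at least 3000 UMIs the shares were 6.54% and 10.4%. With a limit of 5% mitochondrial UMIs they were 35.3% and 38.5%, and with 20% they were 10.9% and 15.6%. The homozygous share was higher under each of these limits, while both shares varied with the depth and mitochondrial limits. The cells were shallower than their neighbours, with a median of 2294 and 2477 UMIs against 5895 and 6834 in the Mfap4 group, 8506 and 9506 in the Krtdap group and 6210.0 and 6419 in the Ccn3 group. The sort and loading set such shares, and their part in the difference was not tested.

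The cells carried general fibroblast genes. The 10-gene list (Col1a1, Col3a1, Lum, Pdgfra, Pdgfrb and others) summed to 20354 and 22825 CPM, against 2019 to 7347 CPM in the other 3 groups. Apod alone gave 14484 and 16089 CPM of the members' sums, and 2 of the 10 genes were at least 4-fold higher in all comparisons. The list of leptomeningeal fibroblast genes summed to 44992 and 42752 CPM against 5258 to 11724, of which Ptgds alone gave 39669 and 36745 in the members. In that list 5 of 9 tested genes were at least 4-fold higher than in every other group and 3 of 12 at least 4-fold lower. Over all genes tested, 4.25% were 4-fold higher and 1.32% 4-fold lower in this way. Col1a2 was at 1528 and 1791 CPM, Dcn at 5775 and 6656 CPM and Ptprc at 0, all of which the rule bears on. All 10 general fibroblast genes, which the rule did not use, had at least 100 UMIs in the members. Endothelial-marked cells reached that minimum for 9 of them and microglia-marked cells for 7, so it does not set fibroblasts apart. The label of a fibroblast follows from Col1a2 and Dcn, which the rule required, and was not tested. The place of the cells in the brain was not measured.

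Transcripts of other cells were present, and their summed levels differed between the libraries. Choroid plexus epithelium genes summed to 56519 and 19654 CPM, of which Ttr alone gave 55808 and 19264, and 204 of 208 and 330 of 368 members held at least 5 such UMIs. Ttr was also at 43493 and 14192 CPM in endothelial-marked cells and at 52493 and 6775 CPM in the Krtdap group, so it was lower in the homozygous library in cell classes of several kinds. Erythroid genes summed to 5225 and 26091 CPM, with at least 5 UMIs in 5 and 20 members. The endothelial list gave 1233 and 1616 CPM, the macrophage and microglia list 1284 and 1342, the mural list 141 and 263 (against 12199.9 and 12053 in mural-marked cells), the astrocyte list 518 and 677, and the oligodendrocyte, Schwann, neuron, ependymal and lymphoid lists between 95.9 and 587. The astrocyte list shares Gjb6 with the Ccn3 set of the rule, so its sum is not specific to astrocytes. In 14 heterozygous members (6.73%) and 10 homozygous members (2.72%), the 11 lists of other cells together held over 5% of the UMIs. Choroid plexus genes alone passed 5% in 11 and 5 of them, and erythroid genes in 2 and 5. These few cells were deep and held 22.2% and 10.6% of all UMIs of the members, so the leading comparisons between libraries are also given without them. With such cells left out of all 4 groups, Kl of the choroid plexus list was at 212 and 191 CPM in the members. That was at least 20.1-fold above each other fibroblast group in both libraries, though with all cells 0 of the list's 4 tested genes passed 4-fold. The list's sum thus cannot be read as RNA of other cells alone. 103 barcodes occur in both libraries, and 3 members have a barcode that the other library also holds. Scrublet called 14 (6.73%) and 26 (7.07%) members as doublets, near the 6.44% and 6.46% over all barcodes, and they were kept.

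The markers differed from the other groups by large factors in both libraries, as the rule required. Slc7a11 was at 4170.2 and 4905 CPM and was detected in 93.8% and 95.9% of members, against 2.9 to 48.4 CPM over the 3 groups and 2 libraries. Slc6a13 (chr6:121300227-121337733) was at 939.5 and 1077 CPM and in 84.1% and 87.2% of members, and Slc22a6 (chr19:8618039-8628299) was at 321 and 353 CPM and in 51% and 51.1%. Col15a1 (chr4:47208161-47313167) was at 911 and 981 CPM and in 78.8% and 81.5%, and Lama1 (chr17:67697259-67822647) at 376 and 436 CPM and in 61.1% and 64.7%. In microglia-marked cells, Slc7a11 had a UMI in 2.86% and 6.38% of cells and Slc22a6 in 0.159% and 0.797%. A marker was missing from some members in each library, most often Slc22a6. Outside the fibroblasts, Slc6a13 was at 43.9 and 101 CPM in mural-marked cells, and Slc7a11 was at 41.3 and 59.4 CPM in endothelial-marked and 7.73 and 23.9 CPM in microglia-marked cells.

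**Figure D1:**
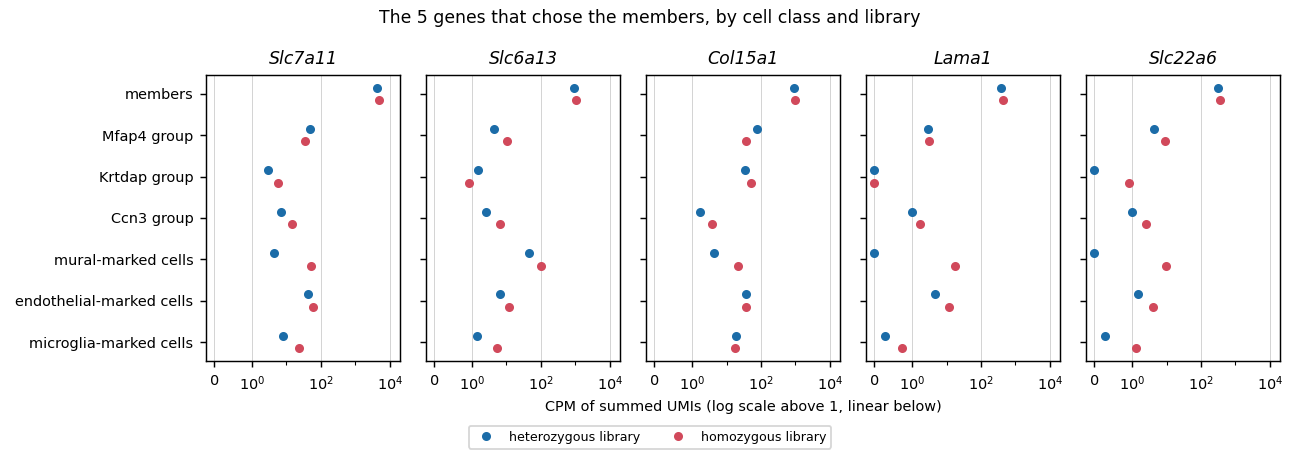
Level of each of the 5 choosing genes (x axis, CPM of summed UMIs, log scale above 1 and linear below) in the Slc7a11 fibroblasts (members), the 3 other fibroblast groups and 3 classes of comparison cells (y axis), 1 point per library. The members lie to the right of every other class in both libraries, which the rule fixes for the fibroblast groups.

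Apart from the genes of the rule, 153 of 3600 genes with at least 100 UMIs in the members (4.25%) were at least 4-fold higher in Slc7a11 fibroblasts than in each of the 3 other groups in both libraries, which makes 6 ratios per gene. At 2-fold the count was 409 (11.4%). The 153 became 61 among cells with at least 3000 UMIs, of which 58 were shared, and 93 after every cell was thinned to 2000 UMIs, of which 80 were shared. Without the members over 5% other-cell UMIs the count was 165, with 149 shared. Genes named below stand with their level in the members and the smallest of the 6 ratios.

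Many of the leading genes encode membrane carriers. Slc6a20a, a carrier of proline and other imino acids, was at 691 and 965 CPM and at least 47.7-fold higher in each of the 6 ratios. Slc1a3, the glutamate carrier GLAST, was at 1046 and 1127 CPM with a smallest ratio of 22.3. The other fibroblast groups thus held these amino acid carriers at a small part of the level. Slc22a8, the organic anion carrier OAT3 and kin of the marker Slc22a6, was at 339 and 396 CPM against 7.42 to 14.7 CPM (smallest ratio 23.1). Slc16a12, a carrier of creatine, was at 184 and 222 CPM (smallest ratio 36.6), and Slc30a10, a manganese exporter, at 189 and 214 CPM (smallest ratio 23.5). Of the 27 tested genes of the solute carrier list, 8 were at least 4-fold higher in all 6 ratios. Slc3a2, the heavy chain with which Slc7a11 forms xCT, was at 469 and 469.8 CPM against 88.4 to 216 CPM, a smallest ratio of 2.18. Of 8 ABC transporters 1 passed, Abca8a, at 387 and 463 CPM (smallest ratio 4.98). The drug efflux pump Abcg2 was at 79.4 and 88 CPM.

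Several of these genes were as high or higher in mural-marked cells (105 and 206 cells with at least 10 UMIs of Rgs5, Kcnj8, Higd1b and Ndufa4l2). Vtn, which encodes the adhesive glycoprotein vitronectin, was at 2899.6 and 3662 CPM in Slc7a11 fibroblasts, 31.7-fold or more above each other fibroblast group, and at 9453 and 9035 CPM in mural-marked cells. Slc6a20a was at 853 and 1219 CPM there and Slc30a10 at 435 and 382 CPM. Slc22a8 was lower than in the fibroblasts, at 246 and 261 CPM in mural-marked and 213 and 281 CPM in endothelial-marked cells. Rgs5, a defining pericyte gene, was at 21 and 86.3 CPM in the fibroblasts and 6733 and 7293 CPM in mural-marked cells, a class chosen partly by it. Vtn, Slc6a20a and Slc30a10 were thus higher in mural-marked cells, while the mural list as a whole was low in the fibroblasts. A cell could belong to both classes, and the number of such cells was not determined.

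Of 15 tested basement membrane genes, 6 were at least 4-fold and 9 at least 2-fold higher than in every other group. Lamc1, the gamma-1 chain that joins Lama1 in a laminin trimer, was at 559 and 564 CPM (smallest ratio 7.43), and Lamc3, the gamma-3 chain, at 174 and 210.0 CPM (smallest ratio 14.8). Col4a5 was at 432 and 481 CPM (smallest ratio 4.6), whereas Col4a1, the more widespread collagen IV chain, was at 536 and 608 CPM with a smallest ratio of 3.02. Interstitial collagens did not share this pattern. 1 of 11 passed 4-fold upward, the transmembrane collagen gene Col13a1 at 189 and 224 CPM (smallest ratio 7.58), and 3 of 18 passed downward. Col6a1 was at 193 and 233 CPM against 648 to 926 CPM, so that the fibroblasts held less of it than each other group.

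Secreted factors and their carriers followed. Edn3, which encodes endothelin 3, was at 545 and 687 CPM (smallest ratio 12), and Trf, the iron carrier transferrin, at 1022 and 1019 CPM (smallest ratio 13.1). Apod, a lipocalin, was at 14484 and 16089 CPM (smallest ratio 7.64), and Ptn, the growth factor pleiotrophin, at 8056 and 9012 CPM (smallest ratio 4.62). Of the TGF-beta and BMP list 2 of 18 tested genes passed upward, among them Bmp7 at 307 and 443 CPM (smallest ratio 8.66), and 5 of 32 passed downward, among them Id2. Wnt genes gave 3 of 9 upward and 0 of 20 downward. The ligand Wnt5a was at 369 and 479.8 CPM (smallest ratio 5.59), the ligand Wnt4 at 118 and 149 CPM (8.44), and Axin2, a negative regulator that is itself a Wnt target, at 92.9 and 121 CPM (10.6). Apcdd1, a further inhibitor of Wnt signalling, was at 190.3 and 252 CPM with a smallest ratio of 26. The IGF list gave 3 of 10 upward and 2 of 11 downward, and Igfbp2 was at 2077 and 2320.1 CPM with a smallest ratio of 4.55, and Igfbp5 was at 579.9 and 545 CPM against 2717 to 10472 CPM.

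Retinoic acid synthesis was represented by Aldh1a2 and Aldh1a1, which encode dehydrogenases that make retinoic acid. Aldh1a2 was at 192 and 196 CPM (smallest ratio 38.7) and Aldh1a1 at 370.1 and 400.1 CPM (smallest ratio 10.5), the 2 genes of 9 tested in that list that passed 4-fold. Among receptors, Gpr182, an atypical chemokine receptor, was at 244 and 298 CPM (smallest ratio 56.2, a lower bound, since the heterozygous Krtdap group was at 0 and 3 counts stood in its place). Tnfrsf19, a receptor of the TNF family, was at 175 and 196 CPM (19.3), and Pdgfra, which the sort used, at 1041 and 1326 CPM (4.47). Of 29 transcription factors 1 passed 4-fold upward, Tbx18, a T-box factor of mural and meningeal lineages, at 706 and 765 CPM (10.3), and 7 passed 2-fold. Downward, 4 of 47 passed 4-fold and 9 passed 2-fold. Over all genes tested, 4.25% passed 4-fold upward and 1.32% downward. Zic1 was at 653 and 830.1 CPM against 284 to 377 CPM, and Foxd1, also of meningeal lineages, at 351 and 379 CPM against 413 to 761 CPM, so this factor was not higher than in the other groups.

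Further genes among the 25 with the largest and best-counted differences were Dcdc2a at 213 and 244 CPM, Ranbp3l at 276 and 348, Cmbl at 199 and 158, Ntm at 114 and 113, Zkscan2 at 192 and 222 and 4 Gm models (Gm37498, Gm47171, Gm37310 and Gm38009) between 88 and 279 CPM. Their smallest ratios, which for Zkscan2, Gm37498 and Gm37310 are lower bounds against 3 counts, ran from 13.8 to 44.1. Gm47171 lies within Slc6a20a, Gm37310 within Slc1a3 and Gm38009 within Lamc1, each on the strand of the host gene, so the counts of these pairs are uncertain.

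**Figure D2:**
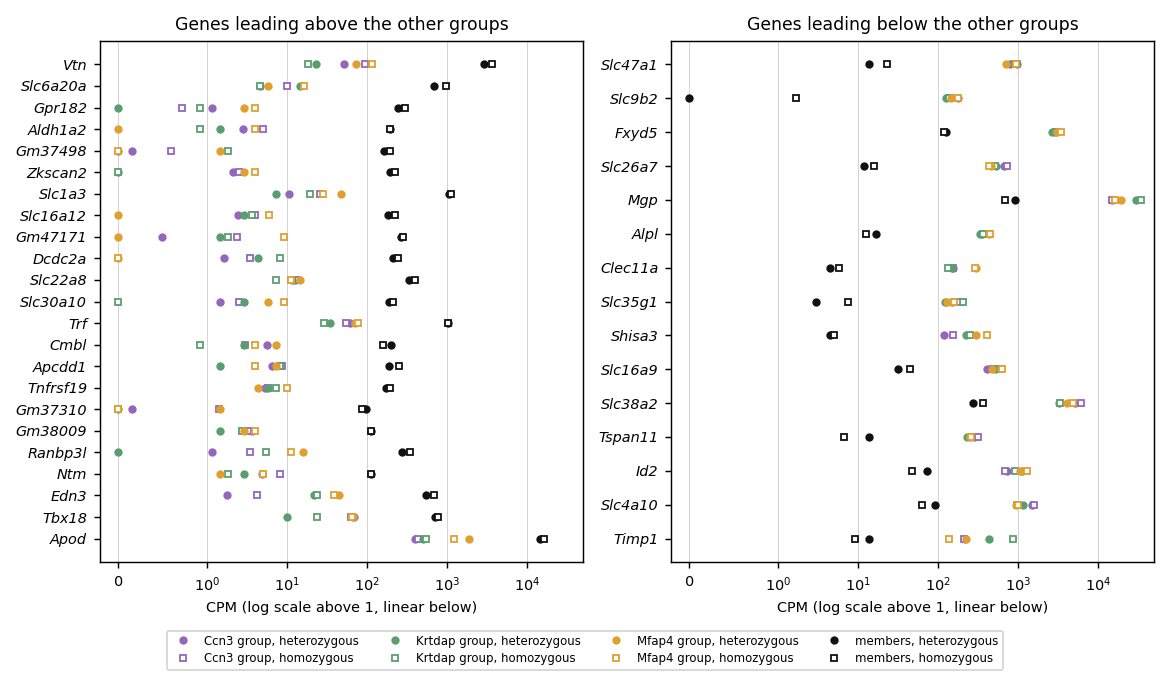
Levels (x axis, CPM of summed UMIs, log scale above 1 and linear below) of genes that set the members apart from the other 3 fibroblast groups, upward in the left panel and downward in the right, 1 point per class and library. Members and other groups stand on opposite sides for each gene drawn, with Slc7a11 fibroblasts at 2899.6 and 3662 CPM for Vtn and 907 and 673 CPM for Mgp.

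Downward, 140 of 10613 genes with at least 100 UMIs in the other groups (1.32%) were at least 4-fold lower in Slc7a11 fibroblasts in all 6 ratios, and 454 (4.28%) at least 2-fold. Carriers were again prominent, with 9 of 41 solute carriers past 4-fold. Slc47a1, the organic cation exporter MATE1, was at 13.5 and 23.2 CPM against 701 to 963 CPM in the other groups, and the anion exchanger gene Slc26a7 at 12 and 15.8 against 432 to 713 CPM. Slc38a2, an amino acid carrier, was at 271 and 364 against 3237 to 6016 CPM, and the sodium-proton exchanger gene Slc9b2 at 0 and 1.66 against 125 to 179 CPM, with 0 and 2 UMIs in the members. The fibroblast groups therefore held different sets of carriers. Slc4a10, a sodium bicarbonate carrier, was at 89.9 and 63.1 against 932 to 1558 CPM, and Slc16a9, of the monocarboxylate carrier family, at 31.5 and 44 against 403 to 634 CPM.

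Mgp, an inhibitor of calcification, was at 907 and 673 CPM against 14737 to 34427 CPM, and Alpl, the tissue alkaline phosphatase, at 16.5 and 12.5 against 335 to 448 CPM. Fxyd5, a regulator of the sodium pump, was at 124 and 117 against 2637 to 3438 CPM. Timp1, an inhibitor of matrix metalloproteinases, was at 13.5 and 9.13 against 136 to 853 CPM. Id2, a BMP target, was at 71.9 and 47.3 against 680.2 to 1274 CPM, and Tspan11, a tetraspanin, at 13.5 and 6.64 against 228 to 315 CPM. Of the 45 immediate-early and dissociation genes measured 9 passed 4-fold downward. The list summed to 7139 and 6560.1 CPM in the members and 15306 to 24300.1 CPM in the other groups.

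Il34, the gene carrying the lacZ allele (chr8:110741829-110805924), was detected in Slc7a11 fibroblasts of both libraries. It gave 85 UMIs in 28.8% of heterozygous and 121 UMIs in 23.4% of homozygous members, or 127 and 100.4 CPM (exact Poisson 95% intervals 102 to 157 and 83.3 to 120.0). The ratio of homozygous to heterozygous was 0.789 (95% interval 0.593 to 1.05), and 0.735 without the members over 5% other-cell UMIs (0.548 to 0.991). The labels do not say where the lacZ cassette lies relative to the counted 3′ end, and lacZ is not among the features, so these counts do not check the genotype labels. The other fibroblast groups stood far lower, at 11.7 and 4.05 CPM in the Mfap4 group, 10.1 and 6.49 in the Krtdap group and 10.6 and 6.26 in the Ccn3 group, with a smallest of the 6 ratios of 10.9. Mural-marked cells were at 136 and 95.6 CPM, with intervals that overlap those of the fibroblasts, and endothelial-marked cells at 4.52 and 5.25 CPM. Microglia-marked cells, which are not a known source of Il34, were at 1.72 and 1.64 CPM with a UMI in 0.954% and 0.911% of cells, at median depths of 3783 and 4244 UMIs that exceed those of the fibroblasts. Of the classes measured, Il34 was thus highest in Slc7a11 fibroblasts and mural-marked cells.

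Csf1, which encodes the second ligand of the CSF1 receptor, was at 106 and 123 CPM in Slc7a11 fibroblasts, a ratio of 1.15 (95% interval 0.864 to 1.55). It was at 57.2 and 69.9 CPM in the Mfap4 group, 39.1 and 39.9 in the Krtdap group, 34.5 and 41.8 in the Ccn3 group and 44.7 and 66.3 in endothelial-marked cells. As a class, the fibroblasts thus held transcripts of both ligands. Of 13 tested ligands to macrophages and leukocytes, Il34 was the 1 that passed 4-fold over the other groups, and 0 differed 1.5-fold between the libraries. Cxcl12, a chemokine, was at 871 and 817 CPM, Spp1 (osteopontin) at 1774 and 2053, Ccl19 at 121 and 170.2 and Kitl, the ligand of the receptor Kit, at 64.4 and 57.3 CPM.

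**Figure D3:**
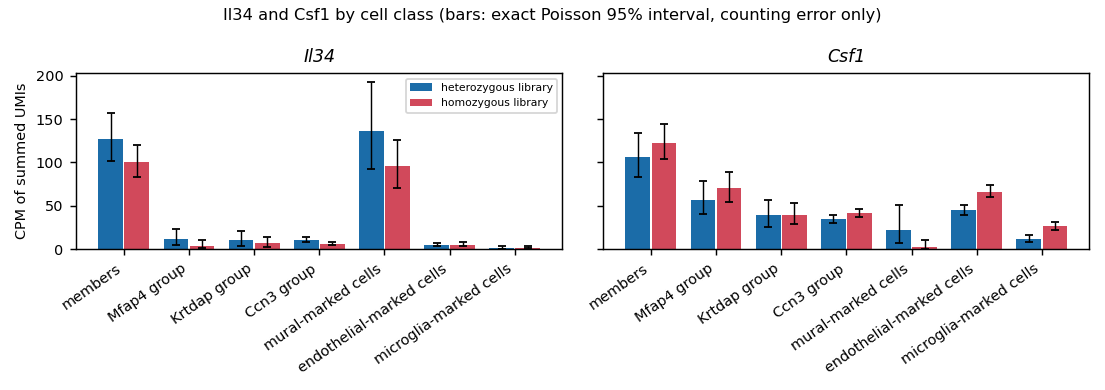
Il34 (left) and Csf1 (right) by cell class, as CPM of summed UMIs (y axis), 1 bar per library with the exact Poisson 95% interval of counting error. For Il34 the members and the mural-marked cells stand above the other classes, at 127 and 100.4 and 136 and 95.6 CPM.

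Between the libraries, 166 of 3611 genes with at least 100 UMIs over the members (4.6%) were at least 1.5-fold higher and 113 (3.13%) at least 1.5-fold lower in homozygous Slc7a11 fibroblasts. At 2-fold there were 18 higher and 23 lower. The split changed with the scaling. With TMM factors, which moved the median log2 ratio of all genes from 0.07 to -0.02, it was 101 higher and 173 lower. Without the members over 5% other-cell UMIs it was 110 higher, 80 of them shared, and 65 lower, 35 of them shared, of 3216 genes. These are descriptions of 2 libraries, and the intervals beside each ratio (exact conditional binomial, 95%) cover counting error only.

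The best-counted higher genes included an iron and a glucose carrier. Slc40a1, the iron exporter ferroportin, was at 30 and 78.9 CPM, a ratio of 2.63 (95% interval 1.61 to 4.5), and 2.19 without the members over 5% other-cell UMIs. Slc2a1, the glucose carrier GLUT1, was at 58.4 and 127 CPM, a ratio of 2.17 (95% interval 1.52 to 3.17), and 2.25 without them. Slc2a1 was at 932 and 999.9 CPM in endothelial-marked cells, and the endothelial list was also higher in the homozygous members. Coro2b, which encodes an actin-binding coronin, was at 25.5 and 68.9 CPM, a ratio of 2.7 (95% interval 1.59 to 4.86), and 2.47 without those cells, on 15 and 77 UMIs. In these genes the direction held in both sets of cells.

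Of the other higher genes, Car4, a membrane carbonic anhydrase, was at 36 and 82.2 CPM, a ratio of 2.29 (95% interval 1.45 to 3.73), and was lower in the homozygous library at a limit of 5% mitochondrial UMIs. Gpx1, a glutathione peroxidase, was at 119.9 and 218 CPM, a ratio of 1.82 that was 1.26 without the members over 5% other-cell UMIs. Ndnf, a secreted neuron-derived factor, was at 334 and 519 CPM, a ratio of 1.55 and 1.36 without them. Gpx1 and Ndnf thus dropped under 1.5-fold. Fry, G3bp1, Zcchc24, Lars2, Pabpn1 and Casd1 had ratios from 1.72 to 2.24, and from 1.55 to 2.07 without those cells. Angpt2, the angiopoietin 2 ligand of Tie2, was at 40.5 and 81.3 CPM, a ratio of 2.01 (95% interval 1.3 to 3.2). Adra1a, an alpha-1 adrenergic receptor, was at 34.5 and 73 CPM, a ratio of 2.12, and Ptgis, prostacyclin synthase, at 43.5 and 82.2 CPM, a ratio of 1.89.

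Among the genes named above from the 25 that led over the other groups, the ratios between libraries ran from 0.791 for Cmbl to 1.4 for Slc6a20a, whereas Adra1a and Ndnf, which were also higher than in the other groups (smallest ratios 7.84, a lower bound against 3 counts, and 9.91), passed 1.5-fold. The 5 markers, whose summed level the rule held to the same bounds in both libraries, had ratios from 1.08 to 1.18, with a median of 1.15, and 1.03 without the members over 5% other-cell UMIs. Slc6a20a had an interval of 1.25 to 1.56, and Vtn had a ratio of 1.26, Edn3 of 1.26 and Apcdd1 of 1.32. Without the members over 5% other-cell UMIs, Slc6a20a had a ratio of 1.23 with an interval of 1.1 to 1.38. Vtn was then at 1.14, Edn3 at 1.16, Apcdd1 at 1.19 and Cmbl at 0.682. Each of these ratios was thus lower without those members, so part of the Slc6a20a difference depended on them. The median over all 3611 genes was 1.05.

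Genes lower in the homozygous library included groups of known function. Of 37 oxidative phosphorylation genes 8 were at least 1.5-fold lower and 0 higher, with a median ratio of 0.752. Atp5g1, a subunit of the ATP synthase ring, was at 641 and 321 CPM (ratio 0.501), Cox7b at 382 and 201 CPM (0.526) and Ndufa4 at 863 and 486 CPM (0.564). Without the members over 5% other-cell UMIs the list's median was 0.994 with 1 gene lower, and these genes stood at 0.786, 0.743 and 0.826. Most of the list's distance from 1 was thus absent once 14 and 10 cells were left out. In other cells of the same libraries the list's median was 0.807 in the Krtdap group, 0.962 in the Ccn3 group and 1.11 in the Mfap4 group. It was 0.844 in endothelial-marked, 0.918 in microglia-marked and 0.996 in mural-marked cells. Ttr had a ratio of 0.345, Ecrg4, which encodes a secreted peptide of the choroid plexus, of 0.41, and Slc22a17, the lipocalin receptor, of 0.508. Without those cells Ttr was at 0.633, Ecrg4 at 0.983 and Slc22a17 at 1.2, on the other side of 1. Arl6ip1 went from 0.462 to 0.863. Pcp4 had a ratio of 0.443, and 10 and 13 UMIs were left without those cells, under the minimum of 100.

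Immediate-early genes, which respond to stimulation and to cell isolation within minutes, were among the lower genes in either set of cells. Junb was at 154 and 63.9 CPM, a ratio of 0.414 (95% interval 0.304 to 0.562), and 0.36 without the members over 5% other-cell UMIs. Jun was at 357 and 171 CPM, a ratio of 0.479 (95% interval 0.396 to 0.58), and 0.445 without them. Fos was at 349 and 182 CPM (0.521, then 0.475) and Dusp1, a phosphatase of MAP kinases, at 147 and 68.1 CPM (0.464, then 0.412). Of the 33 genes of the list 8 were at least 1.5-fold lower and 2 higher, a median ratio of 0.849, and without those cells 10 of 31 were lower and 3 higher, a median of 0.81. A gene of the same list, Mt1 (metallothionein 1), was at 298 and 463 CPM, a ratio of 1.55 in the other direction. The list's median was 0.825 in the Ccn3 group, 0.893 in the Krtdap group, 0.858 in the Mfap4 group and 0.85 in endothelial-marked cells of the same libraries, 1.01 in microglia-marked cells and 1.28 in mural-marked cells, where 14 of its genes were tested. Ccn1, a matrix protein gene induced with these, had a ratio of 0.572, and Igf1 of 0.595, though Igf1 was above 1 at a limit of 20% mitochondrial UMIs.

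Some genes rested on very few cells. Fabp7, a fatty acid binding protein of glia, had 290 UMIs in the heterozygous and 4 in the homozygous members, 288 of them in 1 cell. Prlr, the prolactin receptor, was at 225 and 44.8 CPM, a ratio of 0.199. Without the members over 5% other-cell UMIs it had 4 and 12 UMIs, too few for a direction (95% interval of the ratio 0.438 to 6.15). Rbp4, the plasma carrier of retinol, was at 184 and 50.6 CPM in 4.81% and 3.53% of members, and it is 1 of the 3 retinoid genes of 9 tested that were at least 1.5-fold lower. Enpp2, autotaxin, was at 3175 and 1059 CPM, a ratio of 0.334, and was above 1 without the members that held 5 or more endothelial, mural or macrophage UMIs.

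Part of these calls was shared with other cell classes of the same 2 libraries. The marked classes were not kept apart from the fibroblast groups, and the number of cells in both was not determined. Of the 113 lower genes, 110 were measured in endothelial-marked cells and 25 of them (22.7%) were also at least 1.5-fold lower there, where 1.35% of all genes measured in both were. In the Krtdap group it was 24 of 94 (25.5%, against 2.68% of all genes), in microglia-marked cells 16 of 106 (15.1%, against 1.22%) and in mural-marked cells 4 of 37 (10.8%, against 3.34%). The Ccn3 group shared 11 of 111 (9.91%, against 0.913%) and the Mfap4 group 6 of 89 (6.74%, against 2.62%). Of the 166 higher genes, mural-marked cells shared 8 of 33 (24.2%, against 5.48%), the Krtdap group 12 of 69 (17.4%, against 4.71%) and the Mfap4 group 12 of 72 (16.7%, against 2.58%). Microglia-marked cells shared 13 of 141 (9.22%, against 1.61%), endothelial-marked cells 5 of 154 (3.25%, against 2.78%) and the Ccn3 group 2 of 156 (1.28%, against 0.799%). Whether any difference is particular to Slc7a11 fibroblasts was not tested.

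Leaving aside the other-cell lists and the genes of the rule, the lists' median ratios lay between 0.752 and 1.3. The Wnt list, at 1.3 over 9 genes, had 1 gene past 1.5-fold, the transcription factor gene Lef1 with a ratio of 1.68 (1.54 without the members over 5% other-cell UMIs, and below 1 without those with 5 or more endothelial, mural or macrophage UMIs). Solute carriers, at 1.21, had 4 of 27 higher and 0 lower, and 1.18 with 4 of 26 without those cells. Iron handling, at 1.22, had 3 of 8 higher. Fth1, the ferritin heavy chain that stores iron, was nevertheless at 3201 and 2554 CPM, and Cp, the ferroxidase that works with ferroportin, at 1226 and 1464 CPM. Collagens (1 of 11 higher), basement membrane (0 of 15), general fibroblast genes (0 of 10), transcription factors (0 of 29), MHC class I genes (1 of 10) and interferon response genes (0 of 7) gave few or no calls, and 0 lower. The glutathione and cystine list had a median of 1 over 23 genes, with 1 higher and 1 lower.

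**Figure D4:**
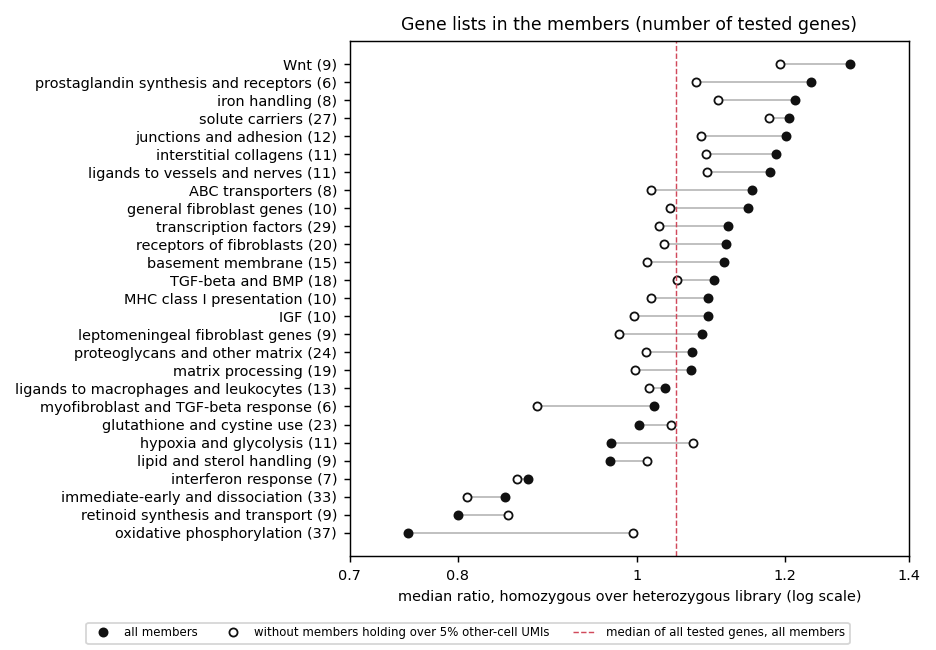
Median ratio of homozygous to heterozygous Slc7a11 fibroblasts (x axis, log scale) for each gene list (y axis, number of tested genes in brackets), with all members (filled) and without the 24 members over 5% other-cell UMIs (open). The oxidative phosphorylation list moves from 0.752 to 0.994, and the immediate-early list lies at 0.849 and 0.81.

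Apart from hemoglobin and Ttr, members differed most among themselves in Ptgds, which encodes the lipocalin-type prostaglandin D synthase of the meninges. It was at 39669 and 36745 CPM over the members and was detected in 81.7% and 80.7% of them. Endothelial-marked cells, at median depths of 2317 and 2296 UMIs, held a Ptgds UMI in 47.4% and 44.1% of cells at 1217 and 742 CPM. Low counts per cell thus occur outside the members too, and their source was not tested. After thinning to 2000 UMIs, which 124 and 243 members reached, the lower quartile was 1 UMI in both libraries, the median 7, the upper quartile 81 and 66.5, and the highest cell 816 and 652. No UMI was found in 23.4% and 23.9% of these cells, and at least 100 in 25% and 20.6%. Its Fano factor, the variance over the mean, was 335 and 254 where the median of 1625 genes was 1.21 and 1.17. Hemoglobin and Ttr, transcripts of other cells, had Fano factors of the same order, at 517 and 594 for Hbb-bs and 387 and 313 for Ttr. Apod followed at 27 and 29.4, Vtn at 12.5 and 9.12, Ptn at 11.8 and 8.83 and Spp1 at 6.63 and 6.12. The spread of Ptgds was alike in both libraries, and thinning held depth equal.

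**Figure D5:**
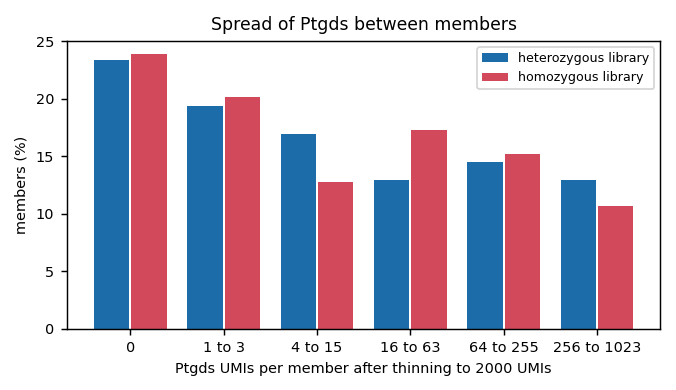
Share of members (y axis, percent) by Ptgds UMIs per cell after thinning to 2000 UMIs (x axis, bins that widen 4-fold), 1 bar per library. Members without Ptgds and members with over 64 UMIs occur side by side in both libraries, with 23.4% and 23.9% at 0.

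Across the thinned members, 5 of 986 genes had a Spearman correlation with Ptgds of at least 0.3 in size and of the same sign in both libraries, given as a description since the cells of a library share its preparation and the lists were drawn after their values were seen. Gjb6, a connexin that the rule used against the cells, had 0.38 and 0.46, and Alcam, an adhesion molecule, 0.37 and 0.35. Bgn, the proteoglycan biglycan, had -0.35 and -0.32, Itih5, a hyaluronan-binding protein gene, -0.34 and -0.35, and Spp1 -0.33 and -0.34. Gjb6 and Alcam thus went with higher and Bgn, Itih5 and Spp1 with lower Ptgds counts, weakly in each case.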

How the data were processed

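The authors' deposited values are whole-number UMI counts. Per the file headers they come from Cell Ranger 5.0.0, on GRCm38.p6 (mm10) per the submitters' processing notes. The matrices have 17168 barcodes with 87394167 UMIs (heterozygous) and 18858 with 95505407 (homozygous), and 0 columns were left unused. Of 25827 gene identifiers, 25651 (99.3%) matched GENCODE vM21. The members and all 47 gene lists were chosen with earlier results of these data known. Barcodes were filtered as described above, leaving 8812 and 10349 cells, of which 1683 and 2343 passed the fibroblast screen. Doublets were called with Scrublet in scanpy 1.11.5 at an expected rate of 10% and kept, and no correction for free RNA was made. The mural-marked, endothelial-marked (1719 and 1640 cells) and microglia-marked cells (629 and 878) carry at least 10 UMIs of a marker set. They give levels and ratios between the libraries for comparison. Cells of the fibroblast groups were not left out of these classes, and the overlap was not counted. The mural set and the 5% limit on other-cell UMIs were chosen after seeing the data.

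UMIs were summed per library and class and given as CPM. A gene needed at least 100 UMIs. Ratios carry exact conditional binomial, levels exact Poisson and shares exact Clopper-Pearson 95% intervals, and a group at 0 was set to 3 counts. All of these cover counting error only. Genes were named by rule, namely the 25 highest and 15 lowest against the 3 other groups (by the end of the interval nearest to 1), the 12 highest and 12 lowest between libraries with at most 20% of UMIs in 1 cell, the 20 with the highest Fano factors, and in each list the 4 highest levels and the extremes of both ratios. Itih5 was chosen after its values were seen. Some genes that met the rule are not reported here. Scripts used Python 3.11.15, numpy 2.4.6, scipy 1.17.1, pandas 2.3.3 and matplotlib 3.10.9. TMM factors came from edgeR 4.0.16 in R 4.3.3, with no count model fitted. Scripts were tested on simulated data. 16 alternative settings gave values, 4 of them added after seeing the data, and a further planned setting left too few members to give any.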

Additional observations from a re-analysis of the deposited data

How the results depend on the processing

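No paired analysis was possible because each genotype has 1 library. There were 16 settings that gave values, 12 planned and 4 chosen after seeing the data. Of 3461 log2 ratios of 248 named genes, 2768 stayed within the interval of the main ratio and 678 moved outside it. The other 15 changed sign from a main ratio at least 1.5-fold from 1. Sign changes of smaller main ratios were not counted apart. Of 424 list medians 405 held. The log2 ratio of the homozygous to the heterozygous share went from 0.35 to 0.67 among cells with at least 3000 UMIs. The 166 genes at least 1.5-fold higher became 103 without called doublets, 48 and 527 with mitochondrial limits of 5% and 20%, 41 after thinning, 101 with TMM factors, 537 and 38 with gene minimums of 50 and 200 UMIs, 50 without members holding 5 or more endothelial, mural or macrophage UMIs, and 110 without those over 5% other-cell UMIs. The 113 lower genes became 258 at 20% mitochondrial UMIs, 173 at 3000 UMIs and also 173 with TMM factors, 29 after thinning, 288 and 40 at minimums of 50 and 200, and 27 and 65 under the last settings. The 153 genes higher than in the other groups became 61 at 3000 UMIs, 93 after thinning and 235 at a minimum of 50. The count of 140 lower genes stayed within 1.5-fold throughout. Fewer members or fewer tested genes enter most of these settings. The 15 counted sign changes follow as log2 ratios. Car4 was -1.17, Ncam1 0.83 and Rgs5 -0.59 at 5% mitochondrial UMIs. At 20%, Id2 was 0.0496, Igf1 0.18 and Ncam1 0.72, and Abcb1a was -0.28 after thinning. Without members holding endothelial, mural or macrophage UMIs, Slc22a17 was 0.0652, Enpp2 0.13, Lef1 -0.0945, Gsta4 0.00959 and Fabp7 0.62. Without those over 5% other-cell UMIs, Slc22a17 was 0.27 and Prlr 0.53 (on 4 and 12 UMIs), and Ncam1 was 0.41 without its top cell. The cause of each was not tested. The 5% mitochondrial limit gave no comparison with the other groups, since 6 heterozygous Krtdap cells were left, and leaving out every member with 5 UMIs of the endothelial, mural, macrophage or choroid plexus list gave no values, since 4 and 35 members were left.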

Other observations

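Further genes of the Slc7a11 fibroblasts that are not named above are given by level, heterozygous library first, some beside the other fibroblast groups. Gjb2, a connexin of the meninges, was at 351 and 425 CPM, Vcam1, an adhesion molecule, at 324 and 348 CPM and Itga1, an integrin subunit that binds collagen, at 237 and 282 CPM. Cyp1b1, a cytochrome P450 enzyme, was at 426 and 487 CPM. Ggt5, a gamma-glutamyl transferase, was at 172 and 204 CPM. Pltp, a phospholipid transfer protein, was at 745 and 908 CPM against 71.8 to 133 CPM in the other fibroblast groups, and Vegfa, the endothelial growth factor, at 209.8 and 266 CPM against 27.7 to 89.4 CPM. Cell cycle genes summed to 211 and 139 CPM, with at least 5 UMIs in 5 and 3 members.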
